A study of Homo sapiens with 12 samples.

Results

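The genes described here are 7 genes of the canonical Wnt pathway, TCF7L2, TCF7L1, BCL9L, DKK1, AXIN2, CTNNB1 and APC, in HCT116 cells, an established human colorectal carcinoma line. Their members in the data are the AGO2 eCLIP regions that overlap the hg38 RefSeq span of a gene on the gene's own strand. There were 6 such regions among the 1190 of the WT list and 10 among the 2921 of the 5xA list, and they fell in 4 of the 7 genes. TCF7L2, TCF7L1, BCL9L and DKK1 held regions with both forms of AGO2, and AXIN2, CTNNB1 and APC held none with either.

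In eCLIP, protein is crosslinked to RNA by ultraviolet light and precipitated, and the RNA fragments that stay attached are sequenced, here to ask which sequences each AGO2 form binds. The series holds 12 samples in 6 groups of 2. They are an input and an anti-FLAG precipitate (IP) from HCT116 cells without AGO2 (AGO2_KO), with tagged wild-type AGO2 (FH-AGO2_WT) and with the tagged mutant 5xA (FH-AGO2_5xA). All were grown for 48 h and then crosslinked with ultraviolet light at 400 mJ/cm2. In 5xA a cluster of residues that are normally phosphorylated is changed to alanine. Each region list stands for the 2 IP samples of its genotype together, so a difference between the lists has no replicate check, and the depth behind a region is unknown. The sources used here do not say how the tagged forms were brought into the cells or whether a line is a single clone.

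Wnt ligands signal through Frizzled and LRP receptors to stop the destruction complex, in which AXIN and APC hold beta-catenin for phosphorylation and decay. Beta-catenin, the product of CTNNB1, then enters the nucleus and acts with TCF/LEF DNA-binding factors and the BCL9 and Pygopus coactivators. The pathway keeps intestinal stem cells dividing and is switched on by mutation in most colorectal cancers. HCT116 cells carry an activating mutation of CTNNB1 and an intact APC. AGO2 carries miRNAs to mRNAs, most often to the 3' part of the transcript, and AGO2 regions in an mRNA mark where the protein was crosslinked, not whether the mRNA was silenced.

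A protein-coding gene that held a region was uncommon. Of 15842 protein-coding genes whose strand the RefSeq promoter table gives, 3.44% held a WT region on their strand, 7.66% held a 5xA region, and 3.06% held both. Against this, 4 of the 7 Wnt genes held both. The 7 genes were chosen with earlier results of these data known, so this count is a description of the choice and no test was made of it. The strands of BCL9L and AXIN2 are not in that table and were taken as minus from general knowledge. All 6 BCL9L regions lay on the minus strand, and AXIN2 held no region on either strand.

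**Figure D1:**
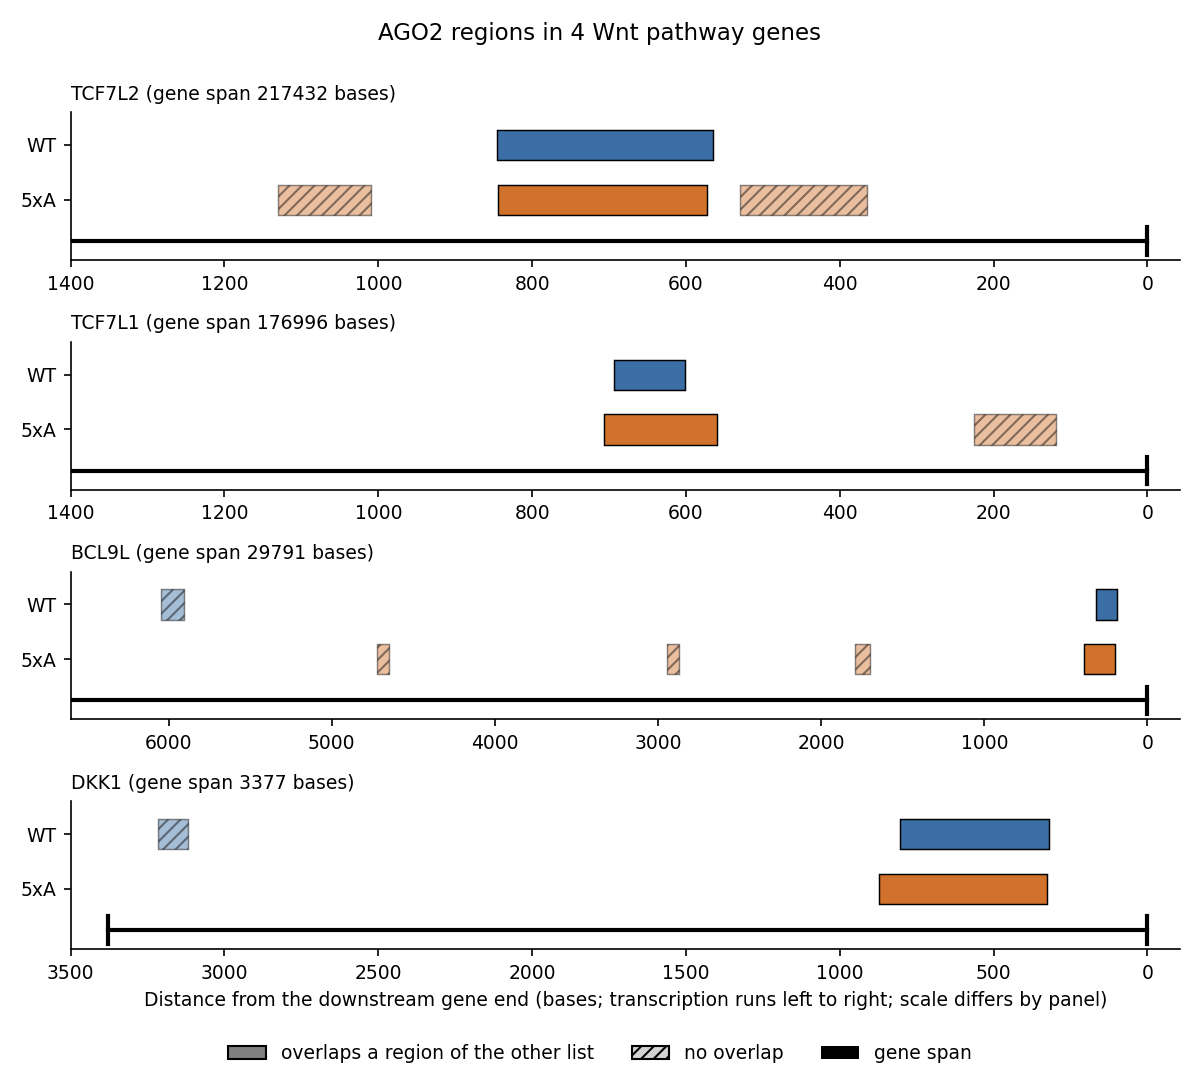
Position of every AGO2 region in TCF7L2, TCF7L1, BCL9L and DKK1, as distance in bases from the downstream gene end, with the WT list above and the 5xA list below in each panel. Solid bars overlap a region of the other list and hatched bars do not. Each gene holds 1 shared position near its downstream end, and the hatched bars are 2 WT and 6 5xA regions.

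TCF7L2 encodes the main DNA-binding partner of beta-catenin in the intestinal epithelium. It held 1 WT region, from 113166833 to 113167113 on chromosome 10 (281 bases). The 5xA list had 3 regions there, from 113166548 to 113166669 (122 bases), from 113166834 to 113167105 (272 bases) and from 113167149 to 113167314 (166 bases). The middle 5xA region and the WT region were almost the same interval, with upstream edges 1 base apart and downstream edges 8 bases apart. The other 5xA regions lay on either side of it, 163 bases upstream and 35 bases downstream of the WT region.

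All TCF7L2 regions thus fell in a stretch of 767 bases that ended 364 bases before the end of a gene of 217432 bases. The WT region and its 5xA counterpart shared 96.8% of their joint length, more than in 91.0% of the 847 pairs of regions that overlap one another alone, in which the median was 77.4%. Here the 5xA region was the narrower of the pair by 9 bases, whereas 5xA had the wider region in 566 of all such pairs and WT in 257. In TCF7L2, therefore, the 5xA list added flanking regions and left the interval in common nearly as it was.

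TCF7L1 encodes a TCF factor known mainly as a repressor of Wnt target genes. Its single WT region ran from 85309695 to 85309786 on chromosome 2 (92 bases). A 5xA region from 85309682 to 85309827 (146 bases) contained it whole and extended 13 bases further upstream and 41 bases further downstream. A second 5xA region, from 85310162 to 85310268, lay 375 bases downstream of the WT region and 119 bases before the gene end. As in TCF7L2, all regions of this gene of 176996 bases lay close to its downstream end, here within a stretch of 587 bases.

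BCL9L encodes a coactivator that links beta-catenin to Pygopus. It held 2 WT regions on chromosome 11, from 118896322 to 118896451 (130 bases) and from 118902041 to 118902182 (142 bases). The 5xA list held 4, from 118896334 to 118896524 (191 bases), from 118897837 to 118897926 (90 bases), from 118899006 to 118899077 (72 bases) and from 118900787 to 118900859 (73 bases). From the first to the last base, its regions spread over 5861 bases with WT and 4526 bases with 5xA.

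On the minus strand of BCL9L the downstream end is the lower coordinate. The shared pair lay there, 186 bases (WT) and 198 bases (5xA) from the gene end, and had 58.1% of its joint length in common, with the 5xA region reaching 73 bases further upstream. The other WT region lay 5905 bases from the gene end, at 79.9% of the way along the gene, and the nearest 5xA region was 1181 bases away. The other 3 5xA regions lay between these positions, 1701, 2870 and 4651 bases from the gene end. They were the narrowest of the 10 5xA regions in these genes, with 36.5%, 18.3% and 19.3% of the whole 5xA list narrower than each in turn.

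The shared BCL9L pair also lies inside the span of CXCR5, a chemokine receptor gene whose span meets the end of BCL9L. The RefSeq promoter table places CXCR5 on the plus strand, opposite to these regions. A count that ignored strand and gave each region to the shorter gene would place the pair in CXCR5 and leave BCL9L with 1 WT and 3 5xA regions, none of them shared.

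DKK1 encodes a secreted inhibitor that binds the LRP5 and LRP6 coreceptors and is itself a Wnt target gene. It held 2 WT regions on chromosome 10, from 52314441 to 52314538 (98 bases) and from 52316855 to 52317336 (482 bases). It held 1 5xA region, from 52316785 to 52317331 (547 bases). The wide regions were a pair with 86.4% of their joint length in common, and the 5xA region began 70 bases further upstream and ended 5 bases earlier.

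The narrower WT region of DKK1 began 160 bases from the start of the gene, with no 5xA region within 2246 bases of it. Regions this close to a gene start were few: in the protein-coding genes with a known strand, 27 of 861 WT regions (3.14%) and 85 of 2160 5xA regions (3.94%) lay within 500 bases of it. Of these 27 WT regions, 15 overlapped a 5xA region and 12 did not. DKK1 is a short gene of 3377 bases, and its regions covered 17.2% of the span with WT and 16.2% with 5xA, against at most 1.43% in the other 3 genes. By width, the 482-base region ranked 21st of 1190 in the WT list and the 547-base region 35th of 2921 in the 5xA list.

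**Figure D2:**
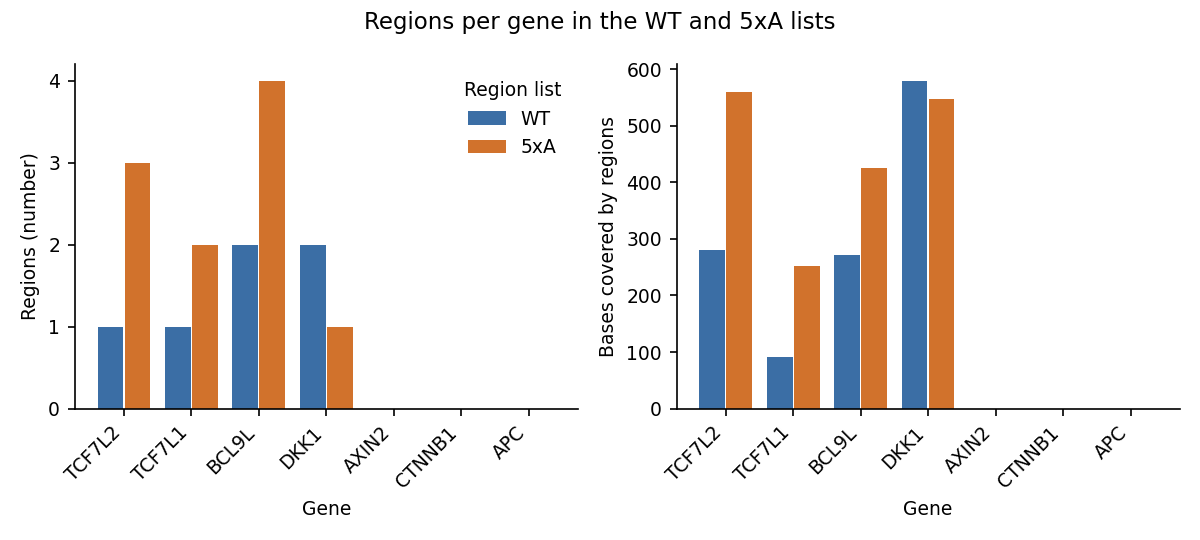
Number of regions (left) and bases they cover (right) for each of the 7 genes, with the WT list in blue and the 5xA list in orange. TCF7L2, TCF7L1 and BCL9L have more regions and more covered bases with 5xA, DKK1 has fewer, and AXIN2, CTNNB1 and APC are at 0 in both lists.

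In 3 of the 4 genes the 5xA list held more regions, and in DKK1 it held fewer. TCF7L2 went from 1 WT to 3 5xA regions (281 and 560 bases), BCL9L from 2 to 4 (272 and 426 bases) and TCF7L1 from 1 to 2 (92 and 253 bases). DKK1 went from 2 to 1 (580 and 547 bases). Among the 485 protein-coding genes with a region in both lists, 49.7% had more 5xA than WT regions and 6.39% had fewer, as DKK1 did. In 18 genes with 2 WT and 1 5xA regions, DKK1 included, 6 had both WT regions under the single 5xA region and 12, among them DKK1, had 1 WT region outside it.

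Over the 4 genes the 5xA list had 1.67 times as many regions as the WT list and covered 1786 bases against 1225, a ratio of 1.46. The whole lists had ratios of 2.45 for regions and 2.35 for covered bases. The sets are unlike, since each of the 4 genes held a region in both lists. Regions of 729 protein-coding genes with 5xA regions alone, and of 60 with WT regions alone, also enter the whole lists. The lower ratios in the 4 genes therefore cannot show a smaller change with 5xA than in other genes bound in both lists. With 6 and 10 regions in hand, these ratios were not tested against each other.

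Of the 6 WT regions, 4 overlapped a 5xA region (66.7%, exact 95% Clopper-Pearson interval 22.3 to 95.7), against 81.3% of all WT regions. Of the 10 5xA regions, 4 overlapped a WT region (40.0%, interval 12.2 to 73.8), against 32.3% of all 5xA regions. These shares are over unlike sets, since all regions of the 4 genes lie in genes with a region in both lists. The whole lists also hold regions of 729 protein-coding genes with 5xA regions alone and 60 with WT regions alone. Both intervals are wide and contain the share of the whole list, and a difference in sharing was not tested. The intervals cover counting error only and treat regions as independent, although several lie in the same transcript.

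The 6 5xA regions without a WT counterpart lay 35 to 2554 bases from the nearest WT region of their gene, with a median of 778 bases. For all 572 added 5xA regions in protein-coding genes that also held a WT region, the median was 387.5 bases and the quartiles were 133 and 1166. In TCF7L2 and TCF7L1 the gaps were 163, 35 and 375 bases, and in BCL9L they were 1385, 2554 and 1181 bases. The median over the 6 regions thus rests on the wider spacing in BCL9L.

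**Figure D3:**
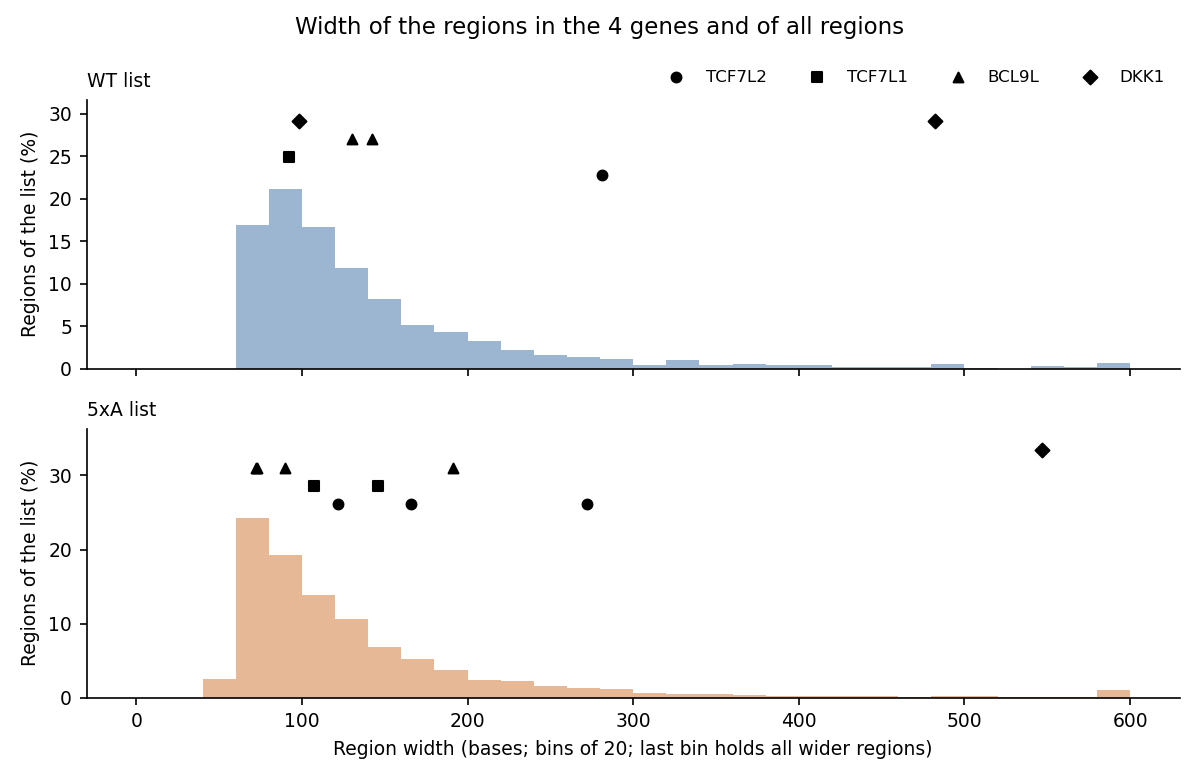
Widths in bases of the regions in the 4 genes (black symbols) above the widths of all regions of the WT list (top) and the 5xA list (bottom), as percent of regions in bins of 20 bases. The height of a symbol has no meaning; the wide DKK1 regions, at 482 and 547 bases, stand in the far right tail of both lists, and the TCF7L2 regions at 281 and 272 bases are next.

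Region width in the 4 genes ranged from 92 to 482 bases with WT (median 136, against 114 in the whole list) and from 72 to 547 bases with 5xA (median 134, against 104). The shared regions included the wide ones. The TCF7L2 pair was wider than 92.9% of the WT list and 93.3% of the 5xA list, and the DKK1 pair was wider than 98.2% and 98.8%. The TCF7L1 WT region was narrower than most, with 30.0% of the WT list below it. Overlap is also easier to reach for wide regions, so width and sharing are not separate measurements.

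Most regions lay toward the downstream gene end, the side of the 3' UTR. With WT, 5 of 6 (83.3%) lay within 5 kb of it, and with 5xA 10 of 10, against 85.1% of 861 WT regions and 82.4% of 2160 5xA regions in protein-coding genes. All 3 DKK1 regions meet this criterion because the gene is shorter than the window. The median distance from the gene end was 583 bases for the 6 WT regions and 566.5 bases for the 10 5xA regions, against 1302 and 1360.5 bases over the same 861 and 2160 regions in protein-coding genes with a known strand. Exon and UTR boundaries were not used here, so no region was assigned to a UTR or a coding exon.

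Neither list held a region in CTNNB1, APC or AXIN2. CTNNB1, the gene of beta-catenin, spans 41199505 to 41240443 on chromosome 3. APC, the scaffold of the destruction complex, spans 112707498 to 112846239 on chromosome 5. AXIN2, a destruction complex scaffold and a Wnt target gene in most tissues, spans 65528563 to 65561648 on chromosome 17. None of the 3 had a region on the opposite strand either, or within 5 kb past its downstream end. The nearest region on the same strand was 985 kb from AXIN2 and 1420 kb from CTNNB1 in both lists.

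For APC the nearest region on its strand was 25600 kb away in the WT list and 3070 kb away in the 5xA list. The 3 genes are of middle length among the 7, with TCF7L2 and TCF7L1 longer than APC and DKK1 and BCL9L shorter than AXIN2. Among protein-coding genes of at least 20 kb, 3.69% held a WT region and 8.41% a 5xA region, so a gene without one was the usual case. The level of these mRNAs in the cells was not analysed here. An absent region says only that none was listed, and not that AGO2 did not bind.

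The rest of the pathway was read from a list of 99 genes grouped by role, the 7 genes included. Both lists had a region in 7 of the 99, the 5xA list alone in 8, the WT list alone in 0, and 84 held none. Of all 15842 protein-coding genes with a known strand, 485 held a region in both lists, 729 in the 5xA list alone and 60 in the WT list alone. The larger number of genes with 5xA alone is thus seen over all genes too. A WT region was thus held by 7.07% and a 5xA region by 15.2%. Without the 7 genes, 3 of 92 (3.26%) held a WT region and 11 of 92 (12.0%) a 5xA region. All protein-coding genes with a known strand stood at 3.44% and 7.66%. The pathway list was also chosen with earlier results of these data known, so these shares describe that choice and were not tested. For 22 of the 99 genes no strand was used, and none of these overlapped a region on either strand. This follows from the choice of genes. Outside the 7, a gene missing from the RefSeq promoter table was given a strand only where it overlapped a region. The shares over all genes leave out every gene missing from that table, whereas MYC, CCND1, FZD6 and SOX9 were counted here.

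**Figure D4:**
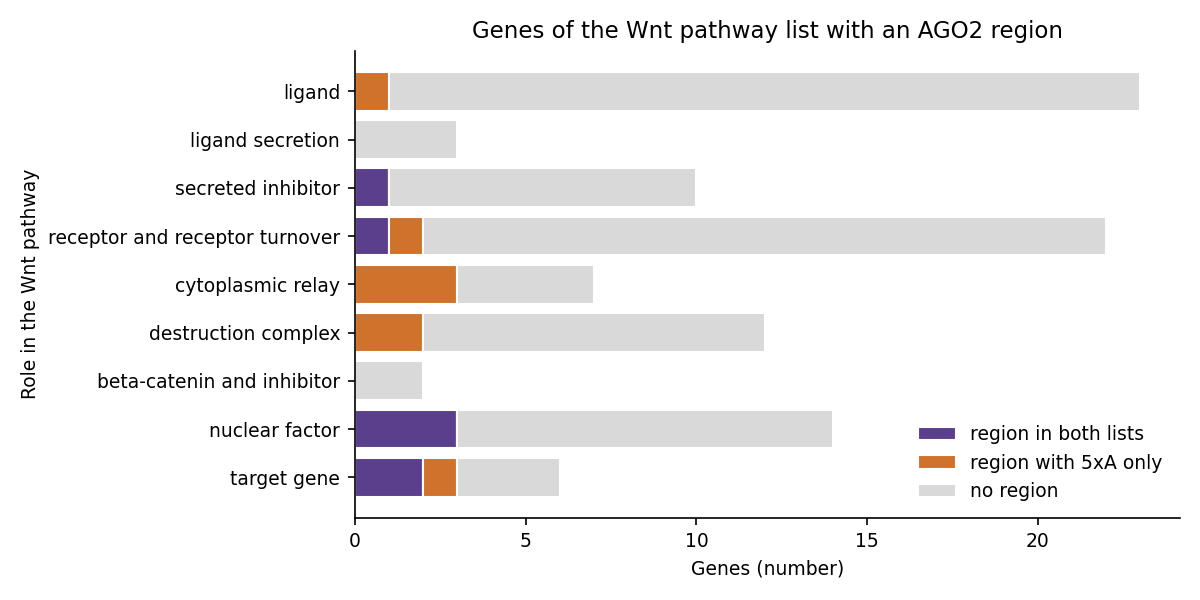
Number of genes in each role of the 99-gene Wnt pathway list, split into those with a region in both lists (purple), those with 5xA regions alone (orange) and those without a region (grey). Nuclear factors (3 of 14) and target genes (2 of 6) hold most of the genes found in both lists. The cytoplasmic relay (3 of 7) and the destruction complex (2 of 12) appear with 5xA only. The 3 nuclear factors are among the 7 genes, which, like the pathway list, were chosen with earlier results of these data known. Over all protein-coding genes with a known strand, 3.44% held a WT region and 7.66% a 5xA region.

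The counts by role that follow stand beside 3.44% (WT) and 7.66% (5xA) of all protein-coding genes with a known strand. Those shares leave out genes missing from the RefSeq promoter table. The counts by role include BCL9L, FZD6, MYC, CCND1 and SOX9, which are missing from it, so the sets are not counted alike. Among the ligands, 1 of 23 genes held a region. WNT16 had 3 5xA regions (68, 82 and 108 bases) and no WT region, 12009, 1811 and 1162 bases from the gene end. No gene of ligand secretion did (0 of 3). DKK1 was the only bound gene of 10 secreted inhibitors, and its paralogs DKK2, DKK3 and DKK4 and the SFRP genes held none.

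Among 22 receptor genes, FZD5 and FZD6, which encode Frizzled receptors, were bound. FZD5 held 1 WT region of 81 bases and a 5xA region of 84 bases that met it, with downstream edges 3 bases apart, and a second 5xA region of 68 bases 491 bases from the gene end. FZD6 held 1 5xA region of 123 bases, 567 bases from the gene end. The coreceptor genes LRP5 and LRP6 and the receptor ligase genes RNF43 and ZNRF3 held none.

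The cytoplasmic relay carries the signal from the receptor, and 3 of its 7 genes held 5xA regions and no WT region. Over all protein-coding genes with a known strand, 729 of 15842 held 5xA regions alone, and a gene without a WT region was the usual case. The lists also differ in their narrowest regions. Below 60 bases the 5xA list held 73 regions and the WT list 0. The Dishevelled scaffold genes DVL1 (94 bases, 890 bases from the gene end) and DVL3 (149 bases, 2537 bases from the gene end) held 1 each. The casein kinase gene CSNK1E held 4, of 57 to 111 bases, all of which also lie in the readthrough gene TPTEP2-CSNK1E. The 4 regions in the span of its paralog CSNK1D lay on the opposite strand, where SLC16A3 lies, and were not counted.

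In the destruction complex, 2 of 12 genes held a region, both with 5xA only. They were the kinase gene GSK3B (51 bases, 4987 bases from the gene end) and the APC-binding membrane protein gene AMER1 (80 bases, 4298 bases from the gene end). The GSK3B region was narrower than any region of the WT list. APC, AXIN2 and their paralogs APC2 and AXIN1 held none, and neither did CTNNB1 or the beta-catenin inhibitor gene CTNNBIP1.

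Among 14 nuclear factors, TCF7L2, TCF7L1 and BCL9L were the only bound genes. All 3 were chosen with earlier results of these data known, so their number in this role describes the choice. The other TCF/LEF genes, TCF7 and LEF1, held no region, and neither did BCL9, the paralog of BCL9L, the Pygopus genes PYGO1 and PYGO2, or the TLE and CTBP corepressor genes. The 3 genes came from 2 families, each with members in which no region was listed.

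Of 6 common Wnt target genes, CCND1, MYC and SOX9 held regions. The cyclin D1 gene CCND1 held 5 WT and 6 5xA regions covering 1650 and 2100 bases, and each WT region overlapped a 5xA region. The transcription factor gene MYC held 1 WT region of 146 bases, which overlapped a 5xA region of 254 bases, and 2 more 5xA regions of 116 and 80 bases. SOX9 held 1 5xA region of 68 bases, and SP5, ASCL2 and CD44 held none. CCND1 had more regions than any of the 7 genes in each list.

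The genes most like each bound gene were sought among protein-coding genes with the same number of WT and of 5xA regions, ranked by the summed difference in covered bases over both lists. TCF7L1 had 83 such genes, and WAC (93 and 253 bases), UBE2Z (84 and 252) and BRD3 (93 and 262) came within 10 bases of it. TCF7L2 had 36, led by SYNGR2 (283 and 597 bases), EIF5A (246 and 554) and CDC25B (375 and 612). BCL9L had 11, led by FBXL19 (334 and 464 bases), UGCG (196 and 470) and FRS2 (231 and 511). DKK1 had 17, led by IMPDH1 (500 and 628 bases), SERPINH1 (390 and 563) and ADM (316 and 468), of which the nearest differed by 161 bases in sum. Likeness here covers 2 region lists and 2 counts only.

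The labelled cell type could not be read from these lists, since a region marks AGO2 binding and not expression. Of 16 colorectal epithelial markers, CLDN4 overlapped regions in both lists and VIL1 a 5xA region, strand ignored. Of 12 fibroblast markers, COL1A1 did in both lists and COL6A1 and COL6A2 with 5xA, and of 12 blood cell markers 0 did. Counted on the gene's strand, 3.44% of all protein-coding genes with a known strand held a WT region and 7.66% a 5xA region.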

How the data were processed

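RNA bound by AGO2 was measured by eCLIP in HCT116 cells. The authors deposited 2 region lists with 6 columns, in which the score is 0 in every row and was not used. The sample descriptions name the same list for both IP replicates of a genotype. Per the submitters' processing notes, cutadapt 1.9.1, TopHat2 and hg38 were used. Of the peak caller, its threshold, the use of inputs and knockout cells and the merging rule, nothing is given in the sources used here. Inputs and knockout IPs (8 samples) were not analysed here. The deposited starts and ends, in bases, were converted to 1-based positions.

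Regions were assigned to RefSeq genes of GRCh38.p14 by an overlap of at least 1 base on the gene's strand. Strands came from the RefSeq promoter table for 15842 of 20033 protein-coding genes on chromosomes 1 to 22, X and Y. For 7 pathway genes the strand came from general knowledge. These were BCL9L and AXIN2, and also FZD6, CSNK1D, MYC, CCND1 and SOX9, which overlapped a region on either strand. A region was called shared where 1 base or more of it lay in a same-strand region of the other list, as counted in Python 3.11.15, tested on simulated data and checked against bedtools 2.31.1. Distances run from the region's nearer edge to the gene end. Exact 95% Clopper-Pearson intervals came from scipy 1.17.1. No hypothesis test was made. The 7 genes and the pathway list were chosen with earlier results of these data known. The genes named are the 7, every pathway gene with a region, and up to 3 genes with equal region counts and nearest covered bases. Paralogs without a region, SLC16A3 and the measures near gene starts were chosen after seeing the data.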

Additional observations from a re-analysis of the deposited data

How the results depend on the processing

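The counts for the 7 genes and for the pathway list were recomputed under 9 alternative settings, which gave 40 values, and each stayed within 1.5 times the reported count. The WT regions numbered 4 to 6 and the 5xA regions 7 to 10, with the lowest values when only regions of at least 100 bases were kept. Under that setting TCF7L1 lost its WT region, so 3 genes held a WT region and 4 a 5xA region. The pathway genes with a WT region then fell from 7 to 5 and those with a 5xA region from 15 to 10. Joining regions within 50 bases merged 2 TCF7L2 regions of the 5xA list, which left 9, and counting regions within 50 bases as shared raised the shared 5xA regions from 4 to 5. Leaving out regions in more than 1 gene removed the shared BCL9L pair and left 3 shared WT regions. Ignoring strand raised the pathway genes with a region to 8 (WT) and 16 (5xA), by CSNK1D. Spans extended by 5 kb downstream, a setting chosen after seeing the data, changed neither the regions of the 7 genes nor the number of these genes with a region. That setting was not applied to the pathway list. Seed matches of miRNAs were not run because no genome sequence was used, and no replicate could be left out. No paired analysis was possible because each list merges its replicates. The depth behind each region is unknown, so a gene without a region may lie below a threshold that cannot be seen here.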
